A study of Homo sapiens with 16 samples.

Results

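Anti-MITF CUT&RUN peaks that were called in every library of both lines were described in WM164, an established human melanoma cell line overexpressing either GFP or the small MAF protein MAFG. In CUT&RUN an antibody brings a nuclease to a chromatin protein, and the DNA cut loose next to it is sequenced. Peaks of the 6 anti-MITF lists (3 libraries of GFP cells and 3 of MAFG cells) were joined into regions, and a region was kept when each of the 6 libraries had a peak in it, on chromosomes 1 to 22 and X. The regions were thus chosen by the anti-MITF peak calls, and the fold enrichment, fragments and width of anti-MITF peaks are given for them as a description. This gave 1146 constant regions of 29820 merged regions. Both groups are the same line with an overexpressed protein, so the GFP cells also carry a transgene. The vector, the promoter that drives it, whether the lines are clones and the time since its introduction are not given in the sources used here. The 3 anti-MAFG libraries of each line and the single anti-H3K4me3 library of each line were used as readouts that did not enter the rule, and the 2 IgG libraries were not analysed here. The labels number the libraries but do not say that they came from separate cultures, so p-values measure only the spread between these libraries, which may be technical.

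MITF is a basic helix-loop-helix leucine zipper factor that directs the melanocyte lineage. It binds as a dimer to E-boxes with the core CACGTG or CATGTG, the latter known in pigment gene promoters as part of the M-box, and its family (MITF, TFEB, TFE3, TFEC) is also known for lysosome and autophagy genes. MAFG is a basic leucine zipper protein without an activation domain that pairs with factors such as NRF2 and BACH1 at antioxidant response elements. H3K4me3 is a histone mark of active start sites. As a check of the labels, H3K4me3 covered a start of the 4 melanocytic marker genes that have one in the reference table (MITF, MLANA, TYR and DCT) in both lines, and of neither non-melanocytic marker that has one, PTPRC of blood and ALB of liver.

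The letters of the regions could be read at promoters. RefSeq promoter windows of GRCh38.p14 (250 bases before to 50 after a start, read on the strand of the gene) overlapped 314 of the constant regions. The windows shown were picked, after their letters were seen, from genes of pigment cells, lysosomes, nutrient sensing and the cell cycle and from regions of high or shifted signal. Capitals mark the E-box cores: CACGTG reads the same on both strands, whereas CATGTG appears as CACATG when it lies on the other strand. In the positions given, -1 is the base just before the start and 1 is the start.
TYR: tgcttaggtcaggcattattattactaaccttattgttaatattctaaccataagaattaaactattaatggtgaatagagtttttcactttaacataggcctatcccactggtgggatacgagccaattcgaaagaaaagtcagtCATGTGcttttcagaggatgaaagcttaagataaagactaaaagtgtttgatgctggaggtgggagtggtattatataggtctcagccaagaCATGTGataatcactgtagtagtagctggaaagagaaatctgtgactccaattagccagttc
BLOC1S1: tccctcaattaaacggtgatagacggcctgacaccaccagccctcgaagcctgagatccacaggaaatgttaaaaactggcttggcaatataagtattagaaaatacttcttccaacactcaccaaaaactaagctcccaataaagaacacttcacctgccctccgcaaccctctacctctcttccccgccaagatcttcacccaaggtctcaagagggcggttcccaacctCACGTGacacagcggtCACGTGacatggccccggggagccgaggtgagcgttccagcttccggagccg
LAMTOR1: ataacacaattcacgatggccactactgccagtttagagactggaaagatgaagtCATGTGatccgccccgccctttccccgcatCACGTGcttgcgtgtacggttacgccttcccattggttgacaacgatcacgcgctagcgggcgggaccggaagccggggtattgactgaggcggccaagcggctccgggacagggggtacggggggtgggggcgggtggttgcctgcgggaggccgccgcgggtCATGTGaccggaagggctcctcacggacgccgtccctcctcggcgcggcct
RRAGC: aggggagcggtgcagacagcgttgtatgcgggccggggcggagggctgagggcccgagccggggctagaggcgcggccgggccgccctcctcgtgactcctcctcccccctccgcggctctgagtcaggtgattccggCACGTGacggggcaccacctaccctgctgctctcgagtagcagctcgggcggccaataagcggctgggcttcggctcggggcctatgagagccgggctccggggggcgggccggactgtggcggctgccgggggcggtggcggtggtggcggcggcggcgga
SPNS1: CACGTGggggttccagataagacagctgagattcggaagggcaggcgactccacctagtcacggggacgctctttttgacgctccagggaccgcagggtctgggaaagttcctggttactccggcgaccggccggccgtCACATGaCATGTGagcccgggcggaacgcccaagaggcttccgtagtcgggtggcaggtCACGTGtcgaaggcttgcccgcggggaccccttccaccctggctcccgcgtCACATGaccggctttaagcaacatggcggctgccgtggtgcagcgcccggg
CLCN6: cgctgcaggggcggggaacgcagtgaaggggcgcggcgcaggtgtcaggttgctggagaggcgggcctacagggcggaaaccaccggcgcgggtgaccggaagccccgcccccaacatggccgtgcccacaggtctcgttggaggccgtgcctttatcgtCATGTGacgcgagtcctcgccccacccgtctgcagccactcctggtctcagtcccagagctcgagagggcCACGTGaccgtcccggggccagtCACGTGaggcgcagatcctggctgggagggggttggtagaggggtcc
CLCN7: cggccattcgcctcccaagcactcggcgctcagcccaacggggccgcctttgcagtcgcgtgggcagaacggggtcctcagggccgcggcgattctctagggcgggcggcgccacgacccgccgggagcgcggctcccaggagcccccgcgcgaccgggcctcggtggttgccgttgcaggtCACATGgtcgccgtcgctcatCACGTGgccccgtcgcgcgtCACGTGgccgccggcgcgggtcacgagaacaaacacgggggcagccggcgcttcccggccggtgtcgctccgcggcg
CDK4: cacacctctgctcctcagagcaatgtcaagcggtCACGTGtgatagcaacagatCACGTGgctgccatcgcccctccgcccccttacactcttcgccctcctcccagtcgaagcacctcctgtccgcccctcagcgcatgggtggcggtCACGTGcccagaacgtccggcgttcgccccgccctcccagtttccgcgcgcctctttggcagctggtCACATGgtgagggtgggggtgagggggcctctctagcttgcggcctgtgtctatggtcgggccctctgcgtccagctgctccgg
STARD10: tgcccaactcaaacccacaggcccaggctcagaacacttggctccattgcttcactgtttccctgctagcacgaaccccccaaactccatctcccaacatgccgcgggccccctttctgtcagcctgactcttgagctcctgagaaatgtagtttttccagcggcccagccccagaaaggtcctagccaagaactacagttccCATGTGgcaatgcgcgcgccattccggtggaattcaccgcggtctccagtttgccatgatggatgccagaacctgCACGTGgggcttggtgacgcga
KIDINS220: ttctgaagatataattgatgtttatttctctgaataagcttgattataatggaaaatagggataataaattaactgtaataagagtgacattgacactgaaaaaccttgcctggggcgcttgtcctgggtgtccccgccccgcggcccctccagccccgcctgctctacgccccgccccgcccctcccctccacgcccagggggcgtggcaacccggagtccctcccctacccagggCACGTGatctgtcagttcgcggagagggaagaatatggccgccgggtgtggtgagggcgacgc

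TYR encodes tyrosinase, the first enzyme of melanin synthesis. Its window (chr11:89177625-89177924, plus strand) held CATGTG at -104 and at -12, and the constant region around it (chr11:89174968-89178999) had its mean summit 1807 bp upstream of the start. At that region the summit held 20, 28 and 21 fragments in GFP cells against 33, 36 and 23 in MAFG cells, which is 23 ± 4.36 and 30.7 ± 6.81 (SD, n = 3 each), and the lines overlapped. BLOC1S1, a subunit of a complex that builds melanosomes and other lysosome-related organelles, had CACGTG at -18 and -2 (chr12:55715796-55716095, plus strand). Its summit held 16, 18 and 22 fragments in GFP cells against 26, 25 and 14 in MAFG cells.

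The windows shown for genes of the lysosome and of nutrient sensing at its surface held 1 to 5 E-boxes each. SPNS1, a lysosomal lipid transporter, had 5 in its window (chr16:28974528-28974827, plus strand), at -250, -111, -104, -52 and -1, with 32, 29 and 33 fragments in GFP cells against 38, 35 and 23 in MAFG cells. LAMTOR1, the membrane anchor of the Ragulator complex, had 3 (chr11:72103248-72103547, minus strand), at -195, -165 and -1. It held 39, 54 and 43 fragments in GFP cells against 59, 75 and 47 in MAFG cells. RRAGC, a Rag GTPase held by Ragulator, had 1 CACGTG at -112 (chr1:38859723-38860022, minus strand), with 32, 26 and 36 fragments against 40, 37 and 38. CLCN6 and CLCN7 encode chloride transporters of late endosomes and lysosomes. CLCN6 (chr1:11805941-11806240, plus strand) had E-boxes at -90, -20 and 4, with 26, 25 and 28 fragments against 30, 32 and 28. CLCN7 (chr16:1474979-1475278, minus strand) had them at -68, -47 and -27, with fewer fragments, 13, 10 and 14 against 18, 15 and 18. All E-boxes of these 5 windows lay inside the constant region.

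The other printed windows show where letters and calls part. CDK4, a kinase of the G1 phase, had 4 E-boxes (chr12:57752261-57752560, minus strand), but only the one at -34 lay inside its constant region (chr12:57751580-57752370), and those at -216, -196 and -101 lay beyond its edge. The STARD10 window (chr11:72793998-72794297, minus strand), of a phospholipid transfer protein, had E-boxes at -47 and 29 and belonged to the region with the fourth highest mean fragment rank. KIDINS220, a membrane scaffold of neurotrophin signalling, had 1 CACGTG at -13 (chr2:8837564-8837863, minus strand). The windows of FLCN, NPC2, CAPN3, RAB27A and SQSTM1, whose regions are described further on, held none of these letters.

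Over all windows, E-boxes were more frequent at the constant regions than in any of the 4 sets beside them. Of 500 windows (402 genes) overlapping a constant region, 35.8% held CACGTG or CATGTG (exact binomial 95% interval 31.6 to 40.2%). The share was 20% (18.7 to 21.4%) of 3468 windows at GFP-only regions, which were called in all 3 GFP-cell and no MAFG-cell libraries. It was 22.1% (19.4 to 24.9%) of 914 windows at GFP-only regions of like fold enrichment, 15% of 12303 windows with H3K4me3 in both lines, and 17.6% of all 34943 windows. CACGTG alone was in 25.2%, 14%, 15.6%, 9.9% and 7.23% of the 5 sets, and CATGTG in 15.8%, 6.95%, 8.1%, 5.83% and 11.1%. For CATGTG the GFP-only windows were thus below all windows while the constant windows were above them. The sets differ in base composition: the median share of G and C letters was 64.3% in constant, 66% in GFP-only and 58.7% in all windows. Its part in these shares was not tested. The extended TCATGTGA, which contains CATGTG, was in 5.2% (3.42 to 7.53%) at constant regions and 0.836% (0.561 to 1.2%) at GFP-only regions. At least 2 E-boxes were in 11.2% and 2.97% of windows. Windows of 1 gene can overlap and share letters. With 1 window per gene the shares for either core were 36.8% (32.1 to 41.7%) and 20.9% (19.4 to 22.5%), and for windows wholly inside a region 38.3% and 20.5%. Intervals cover counting error only and no test was run.

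**Figure D1:**
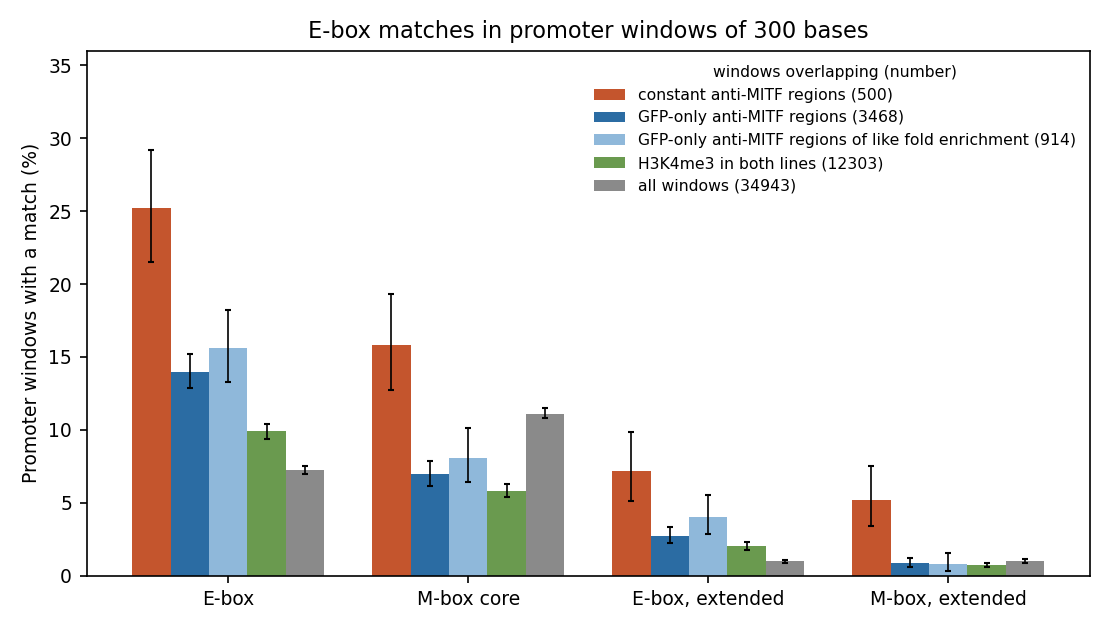
Share of promoter windows with a match on either strand (y axis, percent) for the E-box, the M-box core and their extended forms, in 5 sets of windows (numbers of windows in the key). Error bars are exact binomial 95% intervals. Constant regions have the tallest bar for each of the 4 motifs, 25.2% for the E-box and 15.8% for the M-box core.

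Constant regions were a small part of the peaks called in GFP cells and a large part of those called in MAFG cells. Their peaks were 6.09 to 6.23% of the 19828 to 20117 peaks of a GFP-cell library and 48.2 to 56.8% of the 2116 to 2495 peaks of a MAFG-cell library. Of 11014 regions called in all 3 GFP-cell libraries, 10.4% were constant and 7899 were GFP-only. Another 744 regions were called in 5 of the 6 libraries. Constant regions had a median width of 1872 bp (441 to 8871 bp), against 1260 bp for GFP-only regions. The best summits of the 6 libraries lay within a median of 354 bp of each other, within 100 bp in 160 regions and more than 1000 bp apart in 108, so that some regions may hold more than 1 site.

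The lists hold no reads. Whole fragments at each summit and the local background were therefore recovered from the deposited fold enrichment and p-value of each peak. Recovered depth was an estimate that took the lowest background of a library as its mean and its shortest peak as the fragment length. It was 1.2, 1.63 and 1.34 fragments per kb in GFP cells, against 1.51, 1.73 and 1.39 in the other line. The recovered scale was 1 in each GFP-cell library and 0.452 to 0.561 in the MAFG-cell libraries. Line and scaling cannot be told apart. The weakest peak called had 5 summit fragments in each GFP-cell library, against 10, 12 and 9 in the MAFG-cell libraries. GFP-only regions had medians of 12, 13 and 12 fragments in GFP cells, near the MAFG-cell values. The part of this floor in the numbers of peaks and of GFP-only regions was not tested. Medians over constant regions were 22, 24 and 22 summit fragments in GFP cells, against 27, 30 and 24 in MAFG cells, where the medians over all peaks were 11 in each GFP-cell library and 22, 25 and 20. Regions called in 5 of 6 libraries lay just under this, with medians of 17, 19 and 17 fragments and 21, 24 and 19 where they were called. These values chose the regions and are given without a test.

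Median summit coverage of the constant regions was close in both lines. Relative to the lowest background of its library, it had a median of 56.6, 45.6 and 49.5 in the GFP-cell libraries, against 53.6, 54.4 and 53.6 in those of MAFG cells. The median log2 ratio of MAFG to GFP cells was 0.09, and the central 80% of regions lay between -0.27 and 0.44. In 48 regions (4.19%) all 3 GFP-cell values were above all MAFG-cell values and in 167 (14.6%) the reverse held. These shares were not computed over a wider set of regions, so the counts are only a description. The rule asks for a peak in both lines, which keeps out regions with large loss. Local background under the peaks differed more. Its median, in multiples of the lowest background of the library, was 2.6, 2.62 and 2.55 in GFP cells, against 3.84, 3.85 and 3.84 with MAFG. Deposited fold enrichment, which divides by that background, had medians of 11.5, 10.5 and 10.8 in GFP cells, against 7.73, 7.5 and 7.52 with MAFG.

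Only 5 constant regions differed by more than 1 on the log2 scale of relative coverage, and they are named after their values were seen. The region nearest LRRTM4, a synaptic adhesion protein gene 56627 bp away (chr2:77578090-77579621), had 11, 15 and 15 fragments in GFP cells against 44, 48 and 40 in MAFG cells. A region in the gene body of TANC1, a synaptic scaffold (chr2:159093357-159094865), had 15, 11 and 16 against 49, 51 and 32. Near RYBP, a Polycomb component (chr3:72490222-72491647), the fragments were 33, 38 and 33 against 83, 117 and 71. At FAM167B (chr1:32246427-32248960) they were 10, 14 and 15 against 30, 30 and 29. The best summits of the 6 libraries spread over 1749 bp there, so these values may come from more than 1 site. The region near XDH, which encodes xanthine dehydrogenase (chr2:31333537-31335089), was the only one of them that was higher in GFP cells, with 24, 33 and 31 against 11, 17 and 11. In each of the 5 the lines did not overlap. Mean local background was 1.29 in GFP cells and 13.2 in MAFG cells at the LRRTM4 region, and 3.28 and 2.22 at the TANC1 region.

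Positions were mostly away from start sites. Of the 1099 constant regions on chromosomes with starts in the table (all but chromosome 8), 292, or 26.6% (24.0 to 29.3%), had their mean summit within 1000 bp of a start. GFP-only regions had 31.4% (30.3 to 32.5%) and all merged regions 25.5%. The median distance was 16448 bp, against 12080 bp for GFP-only regions, and 642 constant regions (56.0%) lay in a gene body. H3K4me3 overlapped 491 constant regions in GFP cells (42.8%, 40.0 to 45.8%) and 400 in MAFG cells (34.9%, 32.1 to 37.7%). It did so in both lines at 394, in GFP cells only at 97 and in MAFG cells only at 6. GFP-only regions had 46.1% and 38.4%, with 606 of 7899 in GFP cells only and 0 in MAFG cells only. There was 1 H3K4me3 library per line, with 13580 and 11582 peaks, so this difference has no replicate check.

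The mark followed the position. At start sites 272 of 292 constant regions (93.2%) had H3K4me3 in GFP cells and 261 (89.4%) in MAFG cells. Away from them, 201 of 807 (24.9%) and 124 (15.4%) had it, and 83 of the 97 regions with the mark in GFP cells only were of this kind. Regions away from starts and free of the mark in both lines numbered 600. Their median summits had 21, 23 and 22 fragments in GFP cells against 26.5, 29 and 24 in MAFG cells. At start sites they had 21, 24 and 22 against 26, 29 and 24. Distal regions with the mark in GFP cells (201) had somewhat more, 24, 25 and 24 against 30, 32 and 25.

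Genes of the lists were next looked up among constant regions, by a start within 5000 bp or a gene body that holds the summit. Of 19974 protein-coding genes, 711 (3.56%) had a constant region and 27.4% a region called in all 3 GFP-cell libraries. The pigment and MITF target list had 7 of 20 genes with a constant region (TYR, MLANA, RAB27A, MITF, MLPH, RAB38 and CAPN3), and 15 with a region in all GFP-cell libraries. The lysosome and autophagy list had 6 of 28 genes with a constant region, among them NPC2, ATP6V1B2, SQSTM1, RRAGC and FLCN, and 20 with a region in all GFP-cell libraries. By the same rule none of the 12 MAF and NRF2 targets had a constant region, and 7 had a region in all GFP-cell libraries. Among small MAF proteins and partners only MAFF of 8 had one. The cell cycle list had CDK4 of 16, and the lineage regulators SOX5 and EDNRB of 7. Genes with no start in the table could be found only through their gene body, so these counts are minimums: 12 of the 28 lysosomal and 4 of the 12 MAF and NRF2 genes are of this kind. When a gene end within 5000 bp also counted for them, a choice made after the data were seen, UVRAG, an autophagy protein, and ATP6V1H, a proton pump subunit, brought the lysosomal list to 8, and FTH1, the ferritin heavy chain, brought the MAF and NRF2 list to 1, with 765 (3.83%) of all protein-coding genes. The UVRAG region (chr11:75813823-75817460), 549 bp from the gene, held 31, 32 and 26 fragments in GFP cells against 29, 33 and 30 in MAFG cells. The lists and the regions come from earlier knowledge of these data, so the counts are a description.

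Pigment genes spanned a wide range of signal. RAB38, a small GTPase that delivers enzymes to melanosomes, had the highest of them outside MITF, in its gene body and free of H3K4me3 (chr11:88150892-88153467). It held 50, 44 and 47 fragments in GFP cells and 52, 49 and 54 in the other line, 47 ± 3 and 51.7 ± 2.52 (SD, n = 3 each), and the lines overlapped. MLPH, an adaptor of melanosome transport, had 39, 36 and 28 against 32, 42 and 34 at a region 3223 bp from a start (chr2:237481835-237484118). RAB27A, the GTPase that MLPH binds, was among the lowest constant regions, with 12, 13 and 13 fragments against 17, 17 and 14 (chr15:55269112-55271020). Its mean summit lay at a start in its gene body, but the best summits of the 6 libraries spread over 1360 bp. MLANA, a melanosome protein, was similarly low, with 13, 17 and 12 against 17, 17 and 16 at a region where its gene body overlaps BRD10 (chr9:5895382-5896755). CAPN3, a calpain protease, had 22, 26 and 20 against 28, 33 and 26 at a start in its gene body (chr15:42403946-42406072).

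The constant regions of NPC2, ATP6V1B2, SQSTM1, RRAGC and FLCN were at starts or in gene bodies with H3K4me3 in both lines. FLCN, a regulator of the Rag GTPases and of TFE3 and TFEB, had 35, 40 and 34 fragments in GFP cells against 45, 55 and 53 in MAFG cells at its start (chr17:17235329-17238571). These are 36.3 ± 3.21 and 51 ± 5.29 (SD, n = 3 each) and did not overlap. In relative coverage, which accounts for depth, the lines did overlap, at 80.9 ± 7.93 and 102.5 ± 14.7 (SD, n = 3 each). NPC2, the cholesterol carrier of the lysosome, had 41, 29 and 29 against 26, 35 and 18 (chr14:74491915-74494730), and these overlapped. SQSTM1, the autophagy receptor p62, had 35, 34 and 33 against 40, 44 and 32 (chr5:179817609-179823618). MAFF, a small MAF protein, was low in both lines, with 11, 15 and 11 against 22, 20 and 11 (chr22:38201275-38203576). The best summits of the 6 libraries spread over 3616 bp at SQSTM1 and 1748 bp at MAFF, so these regions may hold more than 1 site.

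**Figure D2:**
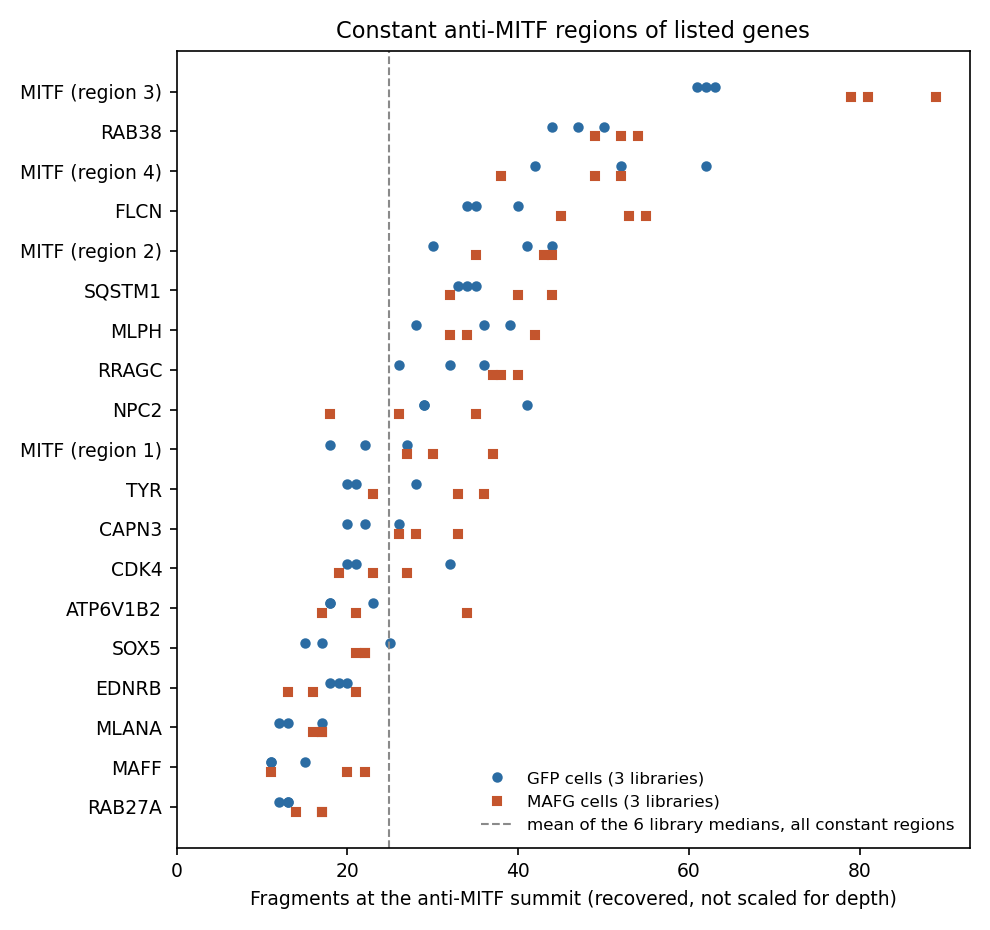
Fragments at the anti-MITF summit (x axis, recovered whole fragments, not scaled for depth) at the constant regions of the listed genes reported here, with 1 point per library for GFP cells (circles) and MAFG cells (squares). Regions of MITF are numbered along chromosome 3, and the dashed line is the mean of the 6 library medians over all constant regions. The third MITF region is highest, at 61 to 63 in GFP cells and 79 to 89 in MAFG cells, and RAB27A is among the lowest.

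MITF itself had 4 constant regions in its gene body and 4 beyond its end. Within the gene the third (chr3:69838041-69840872) had the highest signal, with 62, 63 and 61 fragments in GFP cells against 81, 89 and 79 in MAFG cells. No fragment count of one line reached those of the other, at 62 ± 1 and 83 ± 5.29 (SD, n = 3 each). These counts are not scaled for depth. In relative coverage the values were 138.9 ± 19.9 and 166.3 ± 8.87 (SD, n = 3 each). The fold enrichment of this region moved the other way, from 12.5, 13.4 and 12.5 to 4.76, 4.58 and 5.04, and its local background was 8.85 and 31.6. The others in the gene had 18, 22 and 27 against 30, 37 and 27 (chr3:69786919-69788199), 30, 44 and 41 against 35, 43 and 44 (chr3:69820265-69822193), and 52, 62 and 42 against 52, 49 and 38 (chr3:69860324-69862638). All 4 were free of H3K4me3 in both lines and had anti-MAFG peaks in all 3 GFP-cell libraries. The first 3 also had them in all 3 MAFG-cell libraries and the fourth in none of those.

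The MITF regions belong to a stretch of chromosome 3, picked after the values were seen, that held many of the strongest constant regions. Between positions 60000000 and 75000000, 54 of 173 regions called in all GFP-cell libraries were constant, and 8 of the 10 constant regions with the best mean fragment rank lay there. The highest was nearest CADPS, a vesicle priming factor gene 47485 bp away (chr3:62921522-62925715). It had 133, 130 and 129 fragments in GFP cells against 187, 198 and 176 in MAFG cells. Next came a region at PRICKLE2, a planar polarity gene (chr3:64186520-64190254), with 141, 154 and 136 against 164, 158 and 142. A region nearest SHQ1, an assembly factor of small nucleolar RNPs (chr3:72662769-72664968), had 92, 128 and 116 against 128, 156 and 104. It lay 61372 bp from that gene and 349 bp from another annotated start. In this stretch median relative coverage was 97.0 in GFP cells with MAFG cells at 95.1, against 50 and 52.5 at the other constant regions. Local background was higher too, with medians of 6.84 and 14.4 against 2.48 and 3.29. Its part in these values was not tested. The STARD10 region described above ranked beside them with 74, 87 and 85 against 99, 118 and 99.

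By chromosome, the constant share of regions called in all GFP-cell libraries ran from 2.38% on X (2 of 84) and 3.49% on chromosome 14 (14 of 401) to 13.75% on chromosome 22 (40 of 291). Chromosomes 3, 7, 17 and 20 followed chromosome 22 closely, at 13.2 to 13.4%, with 115 of 871 on chromosome 3. Exact 95% intervals were 1.92 to 5.79% for chromosome 14 and 11 to 15.6% for chromosome 3. Chromosomes with a higher local background in GFP cells tended to have a larger share (Spearman correlation 0.58 over 23 chromosomes, which share their libraries and differ in number of regions). The cause was not tested. Constant regions also stood in groups: 213 (18.6%) had another within 50000 bp, and 10 clusters held at least 4.

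**Figure D3:**
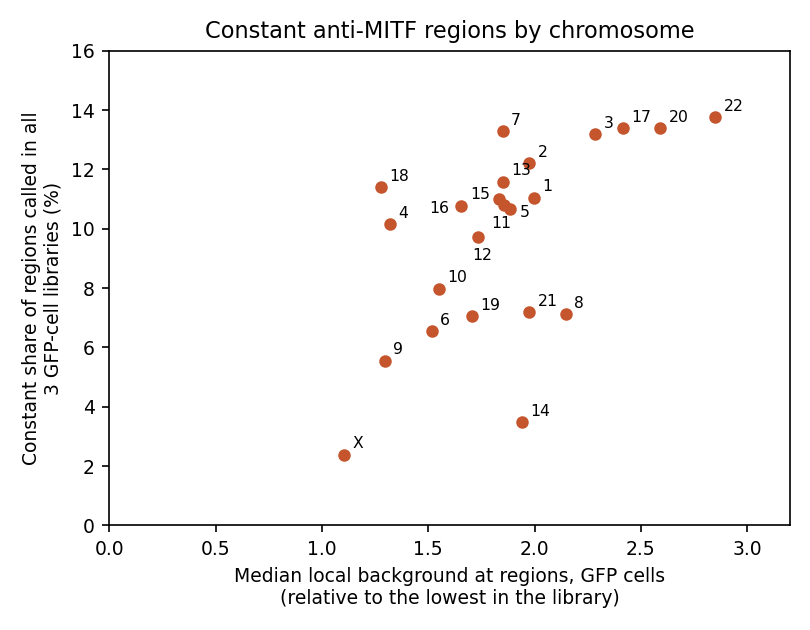
Share of regions called in all 3 GFP-cell libraries that were constant (y axis, percent) against the median local background of those regions in GFP cells (x axis, multiples of the lowest background of the library), 1 point per chromosome. Chromosomes X and 14 have the lowest shares, 2.38% and 3.49%, and chromosome 22 the highest, 13.75%.

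Within-library ranks differed between the lines, and how much depended on the value ranked. Constant regions were ranked among themselves in each library, so that all ranks come from lists of 1146. By fold enrichment, all 3 GFP-cell ranks were better than all MAFG-cell ranks at 263 regions (22.9%), and the reverse held at 270 (23.6%). Over the 1954 regions called in at least 2 libraries of each line the shares were 19.3% and 18.3%. This wider set contains the 1146 constant regions, and a library without a peak in a region was given the worst rank. A region missing a peak in a line could thus not count as better in that line. By recovered summit fragments the counts were 98 (8.55%) and 110 (9.6%), with 5.78% and 10.5% in the wider set. Spearman correlations of fold enrichment over the 1146 regions were 0.71 to 0.73 among GFP-cell libraries, 0.62 to 0.67 among MAFG-cell libraries and 0.09 to 0.15 between lines. Those of fragments were 0.76 to 0.77, 0.80 to 0.83 and 0.69 to 0.75, and those of local background 0.83 to 0.84, 0.90 to 0.91 and 0.30 to 0.32. All points of a library share its depth and its control.

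The regions that changed rank by fold enrichment differed in background more than in coverage. Where GFP-cell ranks were better, median local background was 2.09 in GFP cells and 7.89 in MAFG cells, and median relative coverage 66.4 and 68.3. Where MAFG-cell ranks were better, background was 3.45 and 1.5 and coverage 44.8 and 50.9. Only 36 regions had better GFP-cell ranks on both scales and 41 better MAFG-cell ranks on both, while 23 were better in GFP cells by fold enrichment and in MAFG cells by fragments. Fold enrichment contains the background and the scale of the library by construction.

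**Figure D4:**
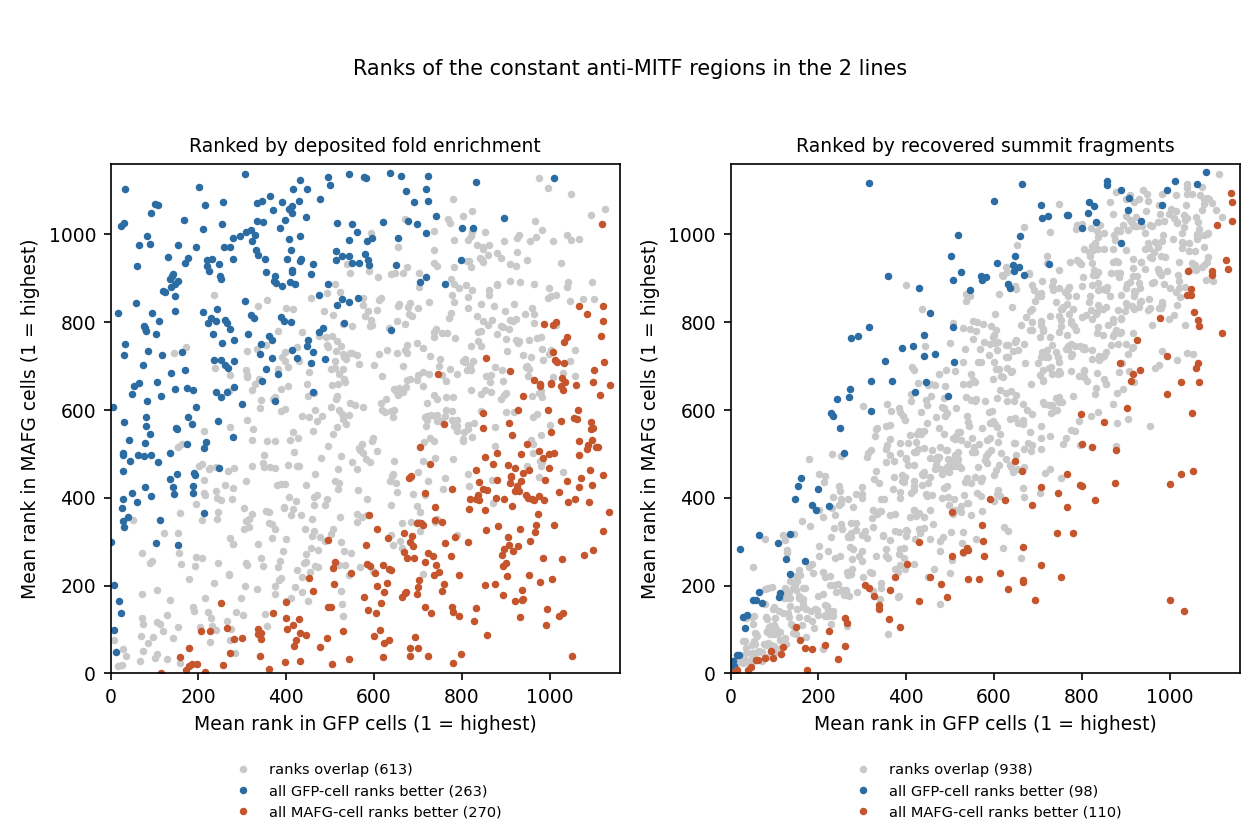
Mean rank of each constant region over the 3 GFP-cell libraries (x axis) and over the 3 MAFG-cell libraries (y axis), 1 being highest, by deposited fold enrichment (left) and by recovered summit fragments (right). Colours mark regions whose 3 ranks in one line are all better than the 3 in the other, 263 and 270 on the left, 98 and 110 on the right, and grey marks the rest.

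Named regions show both cases. SLC39A11, a zinc transporter gene (nearest to chr17:72630821-72633214), had the largest shift towards GFP cells by fold enrichment, with ranks 31, 36 and 33 against 1042, 1146 and 1123. Its fragments were higher in MAFG cells, with 47, 51 and 49 against 74, 75 and 69, over a local background of 2.56 and 35.6. CACYBP, a calcyclin-binding protein (chr1:174997872-175000611), ranked 23, 26 and 40 against 884, 1142.5 and 1053, with 49, 48 and 47 fragments against 44, 49 and 35. A region in CYTH3, an Arf exchange factor, followed. Next came a region whose nearest gene, 487472 bp away, was TBC1D4, a Rab GTPase activator. In the other direction TANC1 led by fold enrichment and came second to LRRTM4 by fragments, with fold ranks 1054, 1060 and 1038.5 against 16, 18 and 83. KIDINS220, whose promoter letters are shown above (chr2:8837037-8837879), had 17, 14 and 12 fragments against 27, 35 and 30 and also moved on both scales. SGSH, a lysosomal sulfatase gene (chr17:80219692-80221177), moved by fold rank, from 1064.5, 921 and 994.5 to 88, 105 and 250.5, while its fragments overlapped at 20, 27 and 21 against 32, 33 and 22.

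Of the 10 regions that ranked best over all 6 libraries by fold enrichment, 8 were away from starts and free of H3K4me3. DDB2, a sensor of ultraviolet DNA damage, came first (chr11:47213880-47215757), with fold enrichments of 31.7, 21.6 and 34.6 in GFP cells against 23.7, 13.8 and 17.8 in MAFG cells. Its fragments were 43, 32 and 49 against 56, 36 and 38, and both lines were at the lowest background of their library. PSCA, on chromosome 8, was the other one with H3K4me3. The 8 without it lay in or nearest AGAP1, FEM1C, RAB38, ISG20, IL16, KCNJ16, ABHD12 and TOP1, and only the last pair had anti-MAFG calls in all 6 libraries. The regions nearest AGAP1, FEM1C, KCNJ16 and TOP1 lay 24700, 84578, 2177 and 66490 bp from these genes. IL16, a cytokine gene (chr15:81252985-81257410), had 40, 47 and 43 fragments against 64, 62 and 62. ISG20, an interferon-induced exonuclease gene (chr15:88648131-88650316), had 48, 39 and 54 against 38, 49 and 24. ABHD12, a lipase gene (chr20:25309168-25311417), ranked 1, 2 and 1 in MAFG cells and 47.5, 11 and 287 in GFP cells, with 56, 61 and 47 fragments against 63, 66 and 63.

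Anti-MAFG calls did not enter the choice of regions and could be tested. An anti-MAFG peak of GFP cells overlapped 79.8%, 73.7% and 57.2% of constant regions in the 3 libraries, and one of MAFG cells 17.2%, 17.0% and 22.9%. The means were 70.3 ± 11.7% and 19.0 ± 3.33% (SD, n = 3 each), a difference of -51.25 percentage points (two-sided exact permutation test, p = 0.1, the smallest that 3 against 3 allows). The number of anti-MAFG peaks differed in the same direction, 14879 to 26221 in GFP cells and 1836 to 2818 in MAFG cells. With the 1836 best peaks of each library it turned round, to 12.5%, 13.5% and 12.5% in GFP cells against 17.2%, 16.8% and 15.8% in MAFG cells, a difference of 3.78 points (exact p = 0.1). All 6 libraries called 103 constant regions, no library called 156, and 362 were called in the 3 GFP-cell and no MAFG-cell libraries.

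Constant regions had an anti-MAFG peak more often than GFP-only regions in 6 of 6 libraries. GFP-only regions had 73.0%, 67.0% and 51.3% in GFP cells and 3.99%, 4.11% and 5.56% with MAFG. The difference averaged 10.5 points (two-sided exact sign-flip permutation test over 6 libraries, p = 0.03125, the smallest it can give). All 6 libraries scored the same 2 sets of regions, so this p-value measures only how alike the libraries are. The difference was 6.54 ± 0.51 points for GFP-cell and 14.5 ± 2.46 for MAFG-cell libraries (SD, n = 3 each), and these differed by 7.93 points (exact permutation p = 0.1). Constant regions are wider (median 1872 against 1260 bp) and stronger than GFP-only regions, with 22, 24 and 22 against 12, 13 and 12 median fragments in GFP cells. An overlap of 1 bp is met more easily by a wider region, and the test cannot separate this from other traits. Against the 1860 GFP-only regions whose mean fold enrichment in GFP cells lay within the interquartile range of the constant regions (8.49 to 14.1), the difference was 5.00 points and no longer passed the test (exact p = 0.25). It then was -1.82, -2.77 and -6.84 points in the GFP-cell libraries and 12.3, 12.8 and 16.4 in the MAFG-cell libraries. The excess in GFP cells thus did not hold at like fold enrichment, and the one in MAFG cells remained in each library. Only fold enrichment in GFP cells was matched. By definition GFP-only regions have no anti-MITF peak in MAFG cells, and the part of this choice in the MAFG-cell excess was not tested. The matched regions were also narrower (median 1482 bp against 1872 bp). They had fewer fragments in GFP cells, with medians of 16, 17 and 16 against 22, 24 and 22.

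**Figure D5:**
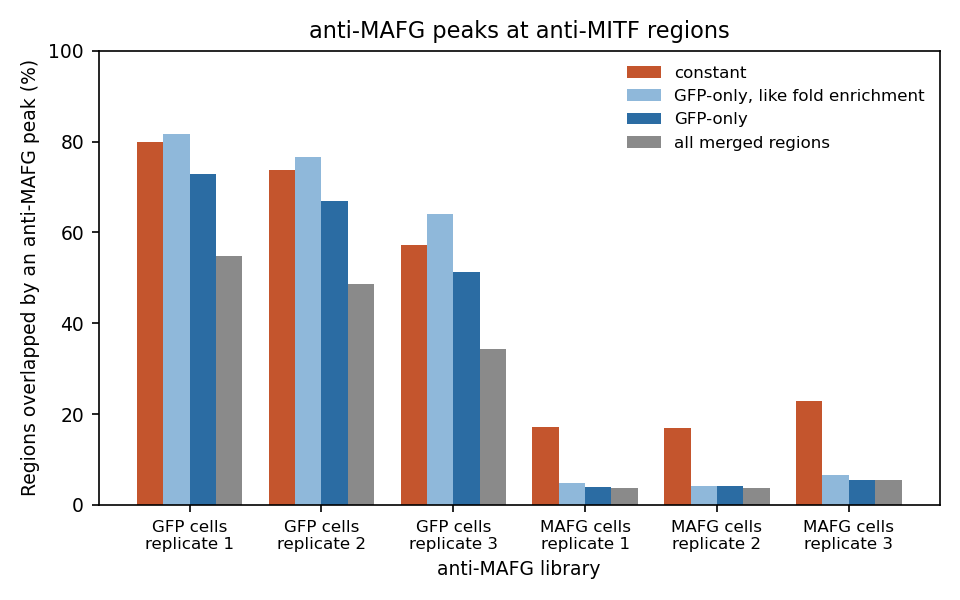
Percent of anti-MITF regions overlapped by an anti-MAFG peak (y axis) in each anti-MAFG library (x axis), for constant regions, GFP-only regions of like fold enrichment, all GFP-only regions and all merged regions. In MAFG cells the constant regions stand at 17.2%, 17.0% and 22.9%, above 3.99 to 6.51% of both GFP-only sets.

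Anti-MAFG calls were more frequent away from start sites. In GFP cells they overlapped 83.0%, 77.7% and 62.3% of distal constant regions and 69.2%, 60.6% and 41.8% of those at starts. In MAFG cells the shares were 19.8%, 19.3% and 27.0% against 9.93%, 11% and 12.7%. Distal constant regions were thus higher in each of the 6 libraries. The same held for GFP-only regions, with 75.3%, 69.6% and 54.2% away from starts against 66.3%, 59.8% and 43.5% at starts in GFP cells. In MAFG cells GFP-only regions had 4.85%, 5.09% and 6.96% against 2.24%, 2.28% and 2.67%. The best ranked constant regions with calls in all 6 libraries were, after ABHD12, those nearest TOP1, NR2F2, MAGI1, MATR3 and SNX13. NR2F2 encodes an orphan nuclear receptor (region chr15:95842733-95844484), with 48, 54 and 33 anti-MITF fragments in GFP cells against 70, 62 and 47 in MAFG cells. That region lay 482489 bp from the gene, and the MAGI1 region lay 246350 bp from MAGI1. MATR3, a nuclear matrix protein (chr5:139271377-139274734), and SNX13, a sorting nexin (chr7:17939113-17941869), were within 1000 bp of a start and had H3K4me3 in both lines. Of the 103 regions, 22 lay in the stretch of chromosome 3 described above.

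Regions whose anti-MITF rank shifted also differed in anti-MAFG calls. Where GFP-cell ranks were better by fold enrichment, the GFP-cell anti-MAFG libraries overlapped 92.0%, 85.6% and 73.8% and the MAFG-cell libraries 11.8%, 10.7% and 16%. Where MAFG-cell ranks were better, the shares were 64.1%, 57.4% and 42.2% and 19.6%, 20.7% and 28.9%. By fragments the contrast was smaller in GFP cells, with 90.8%, 82.7% and 69.4% against 77.3%, 73.6% and 61.8%, and in MAFG cells it was 22.5%, 20.4% and 28.6% against 20%, 18.2% and 21.8%. Local background moved with the ranks by fold enrichment as given above. Regions with better GFP-cell ranks on that scale were also wider than those with better MAFG-cell ranks, with medians of 2205 bp against 1672 bp. Their relative coverage in GFP cells was higher, at 66.4 against 44.8, and H3K4me3 in GFP cells was more frequent, at 51.3% against 37.8%. The part of background, width, coverage and H3K4me3 in the anti-MAFG calls was not tested.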

How the data were processed

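Peak lists of 14 libraries (6 anti-MITF, 6 anti-MAFG, 2 anti-H3K4me3) were analysed, each called on 1 library. Per the submitters' processing notes, cutadapt 1.8.1, Bowtie2 2.4.1, MACS2 2.1.1.20160309, ChIPseeker 1.32.1 and deepTools were used with GRCh38 (hg38). Their parameters and the control used in calling are not given in the sources used here. Fold enrichment, a linear ratio, and the −log10 of p and q were used as deposited by the authors, with all lists starting near a −log10 q of 2.00. They describe and rank peaks within a list.

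Regions were merged and overlapped by at least 1 bp. A region's summit was the mean over libraries of the best peak's summit. Starts came from RefSeq promoter windows of GRCh38.p14, which cover 15813 of 19974 protein-coding genes (79.2%) and no gene of chromosome 8. Regions are named after the gene body that holds the summit or the nearest one. The nearest gene can lie far away, and no link between a region and its gene was tested. Fragments k and local background were solved from fold = (s·k + 1)/(background + 1) and a Poisson tail for p, with 1 scale s per library. This matched 100% of peaks of each anti-MITF library within 0.001 in −log10 p, against 10.2 to 16.8% with the scale multiplied by 0.9, and rests on that inferred formula. Peaks with identical coordinates in 2 libraries were at most 0.284% of the shorter list, so the lists are not copies. Each library counted as its own sample, although the labels do not say that the cultures were separate. Intervals are exact binomial (95%) and cover counting error only.

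Genes were named by rule: the 10 best mean ranks, the 6 largest rank shifts in each direction, the 6 best with anti-MAFG calls in all 6 libraries, the 6 best away from starts and H3K4me3, and every listed gene except 1, which is not reported here. Regions ranked by fragments were added after the data were seen. The members and lists were chosen with earlier results of these data known. Alternatives changed the threshold, peak number, overlap, distance, ranked value and libraries used. The scripts (Python 3, scipy, pandas) were tested on simulated data.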

Additional observations from a re-analysis of the deposited data

Results flagged for a closer look

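The excess of anti-MAFG calls at constant over GFP-only regions of like fold enrichment took opposite signs in the lines: it was below 0 in all 3 GFP-cell libraries (-3.81 ± 2.67 points, SD, n = 3) and above 0 in all 3 MAFG-cell libraries (13.8 ± 2.22 points, SD, n = 3). The lines differed by 17.6 points (two-sided exact permutation test, p = 0.1, the smallest that 3 against 3 allows). The matching used fold enrichment in GFP cells only, and GFP-only regions by definition have no anti-MITF peak in MAFG cells. The contrast between lines is therefore not independent of the rule that chose the regions.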

How the results depend on the processing

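The number of constant regions moved from 1146 to 667 with peaks of −log10 q of at least 5, to 347 with the 2116 best anti-MITF peaks of each library, and to 707 when every library needed a summit inside the shared interval. Leaving out 1 anti-MITF library gave 1150 to 1426. Regions with non-overlapping ranks moved from 533 (46.5% of constant regions) to 316 (47.4%) and 140 (40.3%) under the first and second of these, where fewer regions were kept, and to 208 (18.2%) when ranked by fragments. They were 620 to 772 (53.9 to 55.4%) without 1 library. The start-site share moved to 23% with equal peak numbers, 22.7% within 500 bp and 35.0% within 5000 bp, and stayed at 26.5 to 27.8% without 1 library. The H3K4me3 share in GFP cells moved to 45.8% with equal peak numbers and 38.1% for summits inside a peak, and that in MAFG cells to 31.6% with the stricter threshold and 30.9% for summits. They were 42.1 to 43.4% and 34.7 to 35.8% without 1 library. The anti-MAFG difference between lines reversed to 3.78 points with equal numbers of anti-MAFG peaks and was -57.8 to -46.5 points without 1 anti-MAFG library and -51.4 to -50.4 without 1 anti-MITF library. Against GFP-only regions the 10.5 points became 8.20 (exact sign-flip p = 0.0625) with the stricter threshold, 4.27 (p = 0.3125 by the same exact test) with equal anti-MITF peak numbers and 5.00 (exact p = 0.25) at like fold enrichment; the cause was not tested. Without 1 anti-MAFG library it was 9.15 to 11.4 points, with an exact p of 0.0625, the smallest that 5 libraries allow. Without 1 anti-MITF library it was 8.81 to 12.4. With same-numbered libraries of the lines as a replicate block, the anti-MAFG difference was -51.25 points (exact sign-flip p = 0.25, the smallest that 3 pairs allow). The deviations of libraries that carry the same number had correlations of -0.026 to 0.047. These values cannot tell whether such libraries shared a culture or a batch. Leaving out chromosome 3, an alternative added after the data were seen, kept all 7 results on their side. Depth limits single regions, since a median region has 22 to 30 summit fragments.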

Other observations

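Constant regions formed 10 clusters of at least 4 with gaps of at most 50000 bp, and 5 of them lay outside chromosome 3. The densest had 5 regions over 35945 bp around PCBP1, an RNA-binding protein gene, and C2orf42 on chromosome 2. Another 5 spanned 93138 bp from ARAP1 over STARD10 to ATG16L2 and FCHSD2 on chromosome 11. USP36 and TIMP2 on chromosome 17, SRBD1 and PRKCE on chromosome 2, and SLC23A2 and TMEM230 on chromosome 20 had 4 each. None of these 5 clusters held a region with anti-MAFG calls in all 6 libraries, and the 5 clusters of chromosome 3 were mixed. The CADPS cluster had them in 4 of 4 regions, the PRICKLE2 cluster in 3 of 4, the cluster in the MITF gene body in 3 of 4, the SHQ1 cluster in 1 of 5 and the cluster beyond the end of MITF in 0 of 4.

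Letters other than E-boxes were also counted. TGACNNNGC, the core of the antioxidant response element, was in 18.8% of windows at constant regions (15.5 to 22.5%, exact binomial 95% interval), 16.1% at GFP-only regions and 13.3% of all windows. The AP-1 element TGAGTCA, whose reverse is TGACTCA, was in 6% (4.08 to 8.45%), 3.34% and 4.96%, and in 4.27% (3.05 to 5.79%) at GFP-only regions of like fold enrichment, an interval that overlaps that of the constant windows. CCAAT was in 33.6%, 36.4% and 34.6%, and the GC box GGGCGG in 64.8%, 72.1% and 44.9%. TGACGTCA, the cyclic AMP element, was in 3.2%, 2.57% and 1.84%. Matches were counted on both strands, and no match says only that the letters are not in the window.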
